A study of Mus musculus with 12 samples.

Results

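DNA methylation was measured around 9 genes for transcription factors of myeloid development: Spi1, which encodes PU.1, the C/EBP genes Cebpa, Cebpb, Cebpd and Cebpe, and Klf4, Gfi1, Zeb2 and Egr1. For each gene, CpGs were taken from 20 kb outside each end through the gene body of mouse build mm10, where both strands together had at least 10 calls in all 12 libraries. A call is the methylation state of a CpG in a single read. These loci held 1064 of the 1052856 CpGs that met the depth rule in the whole series. They held 62 of its 87020 stretches, which are windows of 1000 bp with at least 3 such CpGs, and 9 of its 19277 measured loci of protein-coding genes.

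The libraries were made by reduced representation bisulfite sequencing, which reads restriction fragments rich in CpGs after unmethylated cytosines have been converted. All 12 came from spleens of C57BL/6 mice that had received CMM cells by vein, a GFP-positive mouse acute myeloid leukaemia with inv(16). Injections began once leukaemia cells made up about 1% of the blood, were given 3 times on alternate days, and the spleen was taken 1 day after the last of them. The question was whether methylation differs in the CD11b-positive leukaemia cells that appear under CpG-STAT3dODN, a decoy oligonucleotide against the transcription factor STAT3 joined to a CpG oligonucleotide.

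The CD11b-positive group (n = 4) held GFP-positive, CD11b-positive cells sorted from mice given CpG-STAT3dODN. The CD11b-negative group (n = 4) held GFP-positive, CD11b-negative cells of CpG-STAT3dODN mice. The PBS group (n = 4) held GFP-positive cells of mice given PBS that were not divided by CD11b, a surface integrin of mature myeloid cells. Treatment and selection by CD11b therefore cannot be told apart in the CD11b-positive against PBS comparison. The labels do not say whether libraries of a group came from separate mice. Each p-value is therefore set only against the scatter of the 8 libraries compared, which may be technical. Methylation does not measure CD11b or any other marker protein, and the sorts could not be checked in that way.

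The libraries held 112671408 to 157223205 calls, with a median of 84 per CpG and library. The CD11b-positive and CD11b-negative libraries numbered 2 stood apart from the other 10. Their mean methylation at CpG-dense sites was 6.25% and 6.23%, against 8.38% to 10.9% in the others, and at CpG-sparse sites 68.9% and 68.0%, against 53.4% to 63.5%. Set against each other call by call, they were the closest pair of all, with a mean squared standardised difference of 1.2 (1 is sampling noise), beside 1.21 for CD11b-positive libraries 3 and 4. The nearest any other library came to either of them was 4.76. Mean methylation at X-chromosome CpGs was 48.0% and 47.6% in them, against 53.4% to 57.2% in the others. They listed 6823989 and 6500217 CpGs at any depth on the autosomes and X, against 2826185 to 5712096 in the others. By group, a library listed 3706073 to 6823989 CpGs in CD11b-positive and 2826185 to 3373246 in PBS, without overlap. A site was dense when at least 25 listed CpGs lay within 250 bp on each side. Over all common CpGs, methylation averaged 34.7 ± 0.81% in CD11b-positive, 33.1 ± 1.59% in CD11b-negative and 31.4 ± 0.292% in PBS libraries (SD, n = 4 each). The Y-chromosome share, given as calls in Y genes per 1000000 autosomal calls, averaged 28.5 ± 8.58 in CD11b-positive, 18.2 ± 14.8 in CD11b-negative and 10.9 ± 5.66 in PBS libraries (SD, n = 4 each).

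PU.1 is an ETS-family factor that commits progenitors to the myeloid lineages, and the C/EBP proteins are leucine-zipper factors that act with it on monocyte and granulocyte genes. Klf4 and Egr1 act on the monocyte side, Gfi1 is a repressor that acts on the granulocyte side, and Zeb2 is a repressor needed for several myeloid and dendritic fates. Starts of such genes commonly lie in CpG islands, which are unmethylated in most tissues whether or not the gene is active, while methylation of distant CpG-poor DNA varies more between cell states.

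The gene starts that were measured had low methylation in all 3 groups. The windows below, from 250 bases before to 50 bases after a start, are printed because they show how much of each start was read. Capitals mark the CpGs measured in all 12 libraries, and the sequences are those of RefSeq on build GRCm38.p6, given 5′ to 3′ on the gene's strand. Of the 9 genes, 5 had such an entry.
Cebpb, chr2:167688665-167688964, plus strand: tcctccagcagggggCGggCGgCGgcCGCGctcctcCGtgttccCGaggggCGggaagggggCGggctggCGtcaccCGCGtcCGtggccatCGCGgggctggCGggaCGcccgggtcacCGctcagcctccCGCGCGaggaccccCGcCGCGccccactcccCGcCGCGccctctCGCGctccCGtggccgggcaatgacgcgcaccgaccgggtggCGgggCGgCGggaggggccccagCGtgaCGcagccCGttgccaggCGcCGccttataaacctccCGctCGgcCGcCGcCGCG
Gfi1, chr5:107724294-107724593, minus strand: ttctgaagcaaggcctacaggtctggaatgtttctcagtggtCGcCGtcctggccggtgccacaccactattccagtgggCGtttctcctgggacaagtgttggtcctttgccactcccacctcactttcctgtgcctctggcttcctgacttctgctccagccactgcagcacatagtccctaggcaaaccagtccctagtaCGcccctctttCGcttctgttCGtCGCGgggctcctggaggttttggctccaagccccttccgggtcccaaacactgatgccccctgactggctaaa
Klf4, chr4:55532426-55532725, minus strand: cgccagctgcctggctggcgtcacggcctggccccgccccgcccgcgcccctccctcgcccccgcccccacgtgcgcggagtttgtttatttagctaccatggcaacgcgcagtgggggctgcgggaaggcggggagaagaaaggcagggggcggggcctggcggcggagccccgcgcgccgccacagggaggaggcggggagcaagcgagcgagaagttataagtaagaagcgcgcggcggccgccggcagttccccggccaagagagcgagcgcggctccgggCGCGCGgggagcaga
Cebpa, chr7:35119043-35119342, plus strand: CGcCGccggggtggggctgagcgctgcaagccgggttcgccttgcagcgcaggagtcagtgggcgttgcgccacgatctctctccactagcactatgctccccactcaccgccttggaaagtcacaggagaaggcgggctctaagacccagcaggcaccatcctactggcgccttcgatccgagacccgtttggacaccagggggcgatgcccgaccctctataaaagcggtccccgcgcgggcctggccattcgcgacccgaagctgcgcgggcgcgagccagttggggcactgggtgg
In the Cebpb window, 44 of 50 CpGs were measured, and their mean methylation was 0.324% in CD11b-positive, 0.57% in CD11b-negative and 0.59% in PBS libraries. In the Gfi1 window, 8 of 10 CpGs were measured, with means of 0.611% in CD11b-positive, 1.52% in CD11b-negative and 1.97% in PBS libraries. The Klf4 window had 3 of 40 CpGs measured and the Cebpa window 2 of 29, so these windows speak for a small share of their CpGs. The windows at 4 Zeb2 starts and at the other Gfi1 start had 0 CpGs measured and are not printed. The PU.1 core motif GAGGAA, searched on both strands, was absent from all 4 windows and is present in 28.1% of 32544 such windows in the annotation. The C/EBP core motif TTNCNNAA was absent from them too and is present in 40.7%. Of the windows not printed, each of the 4 at Zeb2 starts held 1 match to GAGGAA, and the Zeb2 and Gfi1 windows at the highest coordinate held 1 match each to TTNCNNAA.

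Wider windows of 1000 bp on each side were measured at 7 starts of Cebpa, Cebpb, Klf4, Gfi1 and Zeb2. None of the 7 was called between CD11b-positive and PBS libraries, where 8.98% of the 13214 measured start windows were. A feature was called when its Benjamini-Hochberg adjusted p was under 0.05 and its difference was at least 10 percentage points (5 for whole loci). The adjusted p came from a logistic model of the calls with overdispersion, adjusted over every feature of the kind in the series. Without the size threshold 3 of 7 windows passed, against 23.0% of all. At the Klf4 start, methylation was 4.01%, 0.773%, 3.72% and 4.08% in the CD11b-positive libraries, 5.37%, 1.01%, 6.65% and 7.2% in the CD11b-negative libraries, and 7.17%, 5.08%, 7.38% and 7.04% in the PBS libraries. Every CD11b-positive library lay below every PBS library, and the difference was -3.52 points (adjusted p = 0.00596). Methylation was also lower at the start of Gfi1 at 107725805, by a difference of -0.713 points (adjusted p = 0.0131), and at the start of Cebpa, by -0.702 points (adjusted p = 0.0233). The windows at the 2 Zeb2 starts that were measured did not exceed 1.63% in any library.

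Between CD11b-positive and PBS libraries, 21 of the 62 stretches were called, 19 of them higher and 2 lower in CD11b-positive libraries. That is 33.9%, beside 36.3% of all stretches in the series, of which 32.5% were called higher and 3.76% lower, so the 9 loci held about the background share. On adjusted p alone 34 of the 62 passed, beside 59.7% of all, and at 33 the groups did not overlap, beside 56.2%. The 2 lower ones both lay downstream of Klf4. By place, 3 of the 28 stretches that overlap their own gene were called, and 18 of the 34 in the flanks (16 higher, 2 lower). Over all pairs of a protein-coding gene and a stretch of its locus, 31.2% were called in the gene and 30.9% in the flanks. Place and level went together at the 9 loci. Under 20% methylation in PBS libraries were 20 of the 28 stretches in the gene and 8 of the 34 in the flanks. At 20% or more, 3 of 8 in the gene and 18 of 26 in the flanks were called. The shares over all pairs were not split by level. By level, 0 of the 28 stretches with under 20% methylation in PBS libraries were called (8.28% of all such stretches), 21 of the 30 between 20% and 80% (72.7% of all), and 0 of the 4 above 80% (2.66% of all). Of the 28 low stretches, 8 passed on adjusted p alone, 1 higher and 7 lower, with differences over the 28 from -8.19 to 1.04 points. Of all stretches under 20% in PBS libraries, 28.3% passed on adjusted p alone, 19.5% higher and 8.78% lower. The median difference over the 62 stretches was 0.821 points, beside 5 over all stretches.

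**Figure D1:**
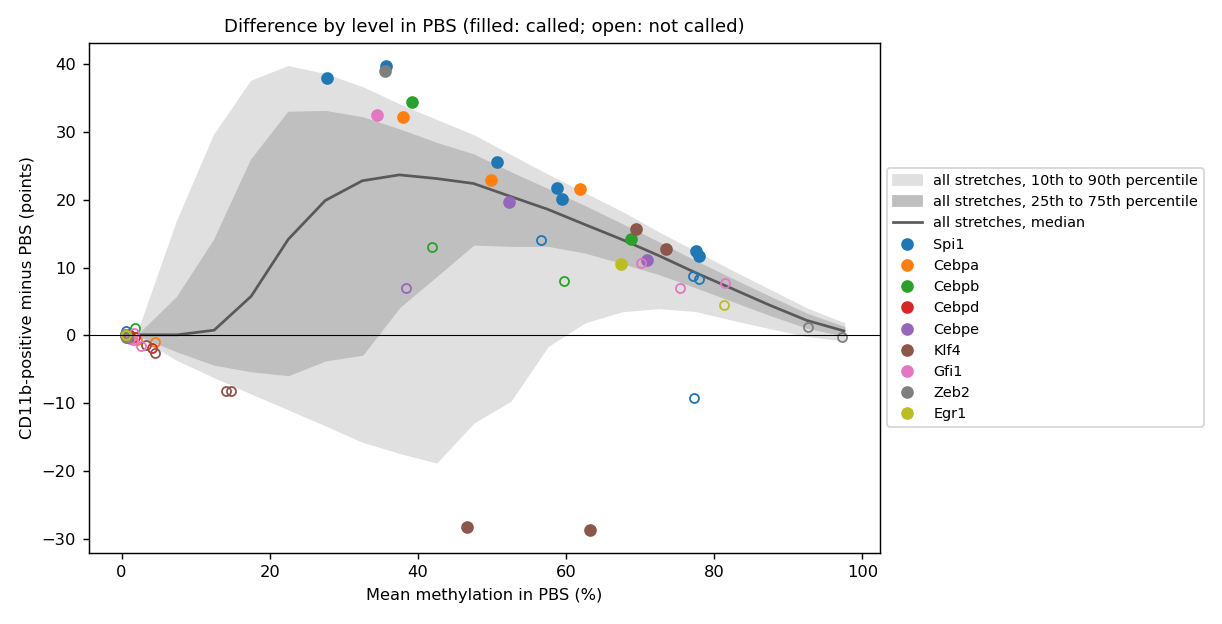
Difference in methylation of the 62 stretches, CD11b-positive minus PBS (percentage points), against their PBS level (percent), drawn over percentile bands of all 87020 stretches. Stretches with low PBS levels lie near 0, those at intermediate levels mostly lie above 0, and the CpG-dense Klf4 stretches 1 and 2 lie at -28.3 and -28.7 points. The bands hold dense and sparse stretches together.

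Library 2 of the CD11b-positive group lay far from the other CD11b-positive libraries at many of these stretches. Without the libraries numbered 2 of both groups, 19 of 62 stretches were called (33.4% of all). Cebpe stretch 1 and Egr1 stretch 4 were no longer called, and the same 3 of 9 loci were called (36.2% of all). With the Y-chromosome share as a term in the model, 0 of 62 stretches, 0 of 9 loci and 0 of 1064 CpGs were called. Over the whole series, 0.131% of stretches, 1.81% of loci and 0.104% of CpGs were called with that term. The Y-chromosome share was higher in all 4 CD11b-positive libraries than in any PBS library, so it moves with the groups compared. Of all libraries it was highest in the CD11b-positive and CD11b-negative libraries numbered 2, at 41.3 and 40.2.

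Averaged over whole loci, Spi1 and Cebpe rose and Klf4 fell in CD11b-positive libraries relative to PBS, and the other 6 loci were not called. This is 3 of 9, beside 39.8% of all loci, with a median difference of 2.29 points over the 9 loci and 3.02 over all. At 7 of the 9 loci the groups did not overlap, beside 79.1% of all loci.

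**Figure D2:**
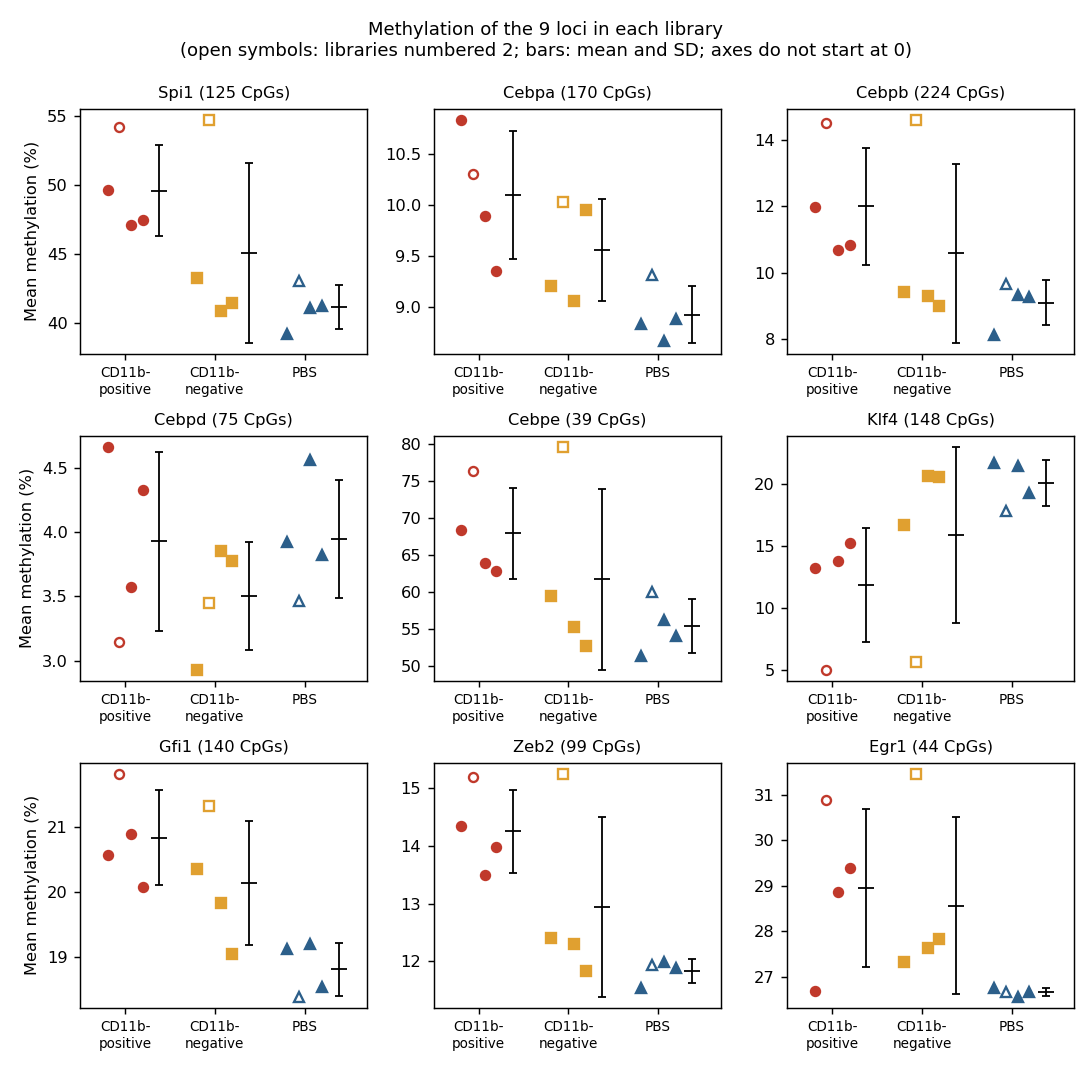
Mean methylation (percent) of the 9 loci in each library, CD11b-positive, CD11b-negative and PBS from left to right, with bars for the group mean and SD (n = 4). Open symbols are the libraries numbered 2, and the axes do not start at 0. The CD11b-positive libraries lie above the PBS libraries at Spi1 and Cebpe and below them at Klf4.

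At the Spi1 locus (chromosome 2, gene at 91082374 to 91115759, 125 CpGs), methylation was 49.6%, 54.2%, 47.1% and 47.5% in the CD11b-positive libraries. It was 43.3%, 54.7%, 40.9% and 41.4% in the CD11b-negative libraries and 39.2%, 43.0%, 41.1% and 41.2% in the PBS libraries. All CD11b-positive libraries lay above all PBS libraries, while the CD11b-negative libraries overlapped both. The difference from PBS was 8.47 points (adjusted p = 0.00259), 7.57 points without the libraries numbered 2, and 2.61 points, not called, with the Y-chromosome share as a term. It lay in the flanks: of the 125 CpGs only 11 lie in the gene, and with flanks of 5 kb the difference was 2.12 points (adjusted p = 0.221).

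Of the 13 Spi1 stretches, 7 were called, all higher, and 6 of them lie on the higher-coordinate side inside Mybpc3, a neighbouring gene for a heart muscle protein. The largest difference was at stretch 10, 13242 bp from the Spi1 gene (chr2:91129001-91130000, 3 CpGs, at least 314 calls in each library). Methylation there was 85.4%, 90.6%, 65.2% and 60.9% in the CD11b-positive libraries, 52.5%, 89.1%, 35.6% and 36.7% in the CD11b-negative libraries, and 25.2%, 45%, 31.8% and 40.9% in the PBS libraries. The CD11b-positive and PBS libraries did not overlap, and the libraries numbered 2 were the highest of each group, PBS among them. The difference was 39.8 points (adjusted p = 0.00445). Stretch 7 averaged 65.7 ± 14% in CD11b-positive and 27.8 ± 8.39% in PBS libraries, and stretch 13 averaged 76.3 ± 10.3% in CD11b-positive and 50.7 ± 5.03% in PBS libraries (SD, n = 4 each). Their differences were 37.9 and 25.6 points (adjusted p = 0.00391 and 0.00442). The 4 other called stretches rose by 11.8 to 21.8 points, and 1 of them overlaps the end of Spi1 itself.

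Inside the Spi1 gene the mean went the other way, although 3 of its 11 CpGs were higher in CD11b-positive libraries. The 11 CpGs of the gene body averaged 60.6 ± 4.18% in CD11b-positive, 66.3 ± 3.05% in CD11b-negative and 68.1 ± 1.43% in PBS libraries (SD, n = 4 each), a difference of -7.49 points from PBS (adjusted p = 0.0164). The 1 CpG of the gene that was called, at position 91086412, had methylation of 47.8%, 50%, 66.7% and 37.0% in the CD11b-positive libraries, 87.4%, 70.8%, 90.6% and 87.8% in the CD11b-negative libraries, and 83.6%, 85.0%, 83.3% and 74.3% in the PBS libraries. All 4 CD11b-positive libraries lay below all 8 others, the library numbered 2 among them. Its difference from PBS was -31.2 points (adjusted p = 0.016), it had as few as 21 calls in a library, and it was picked out after its values were seen.

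**Figure D3:**
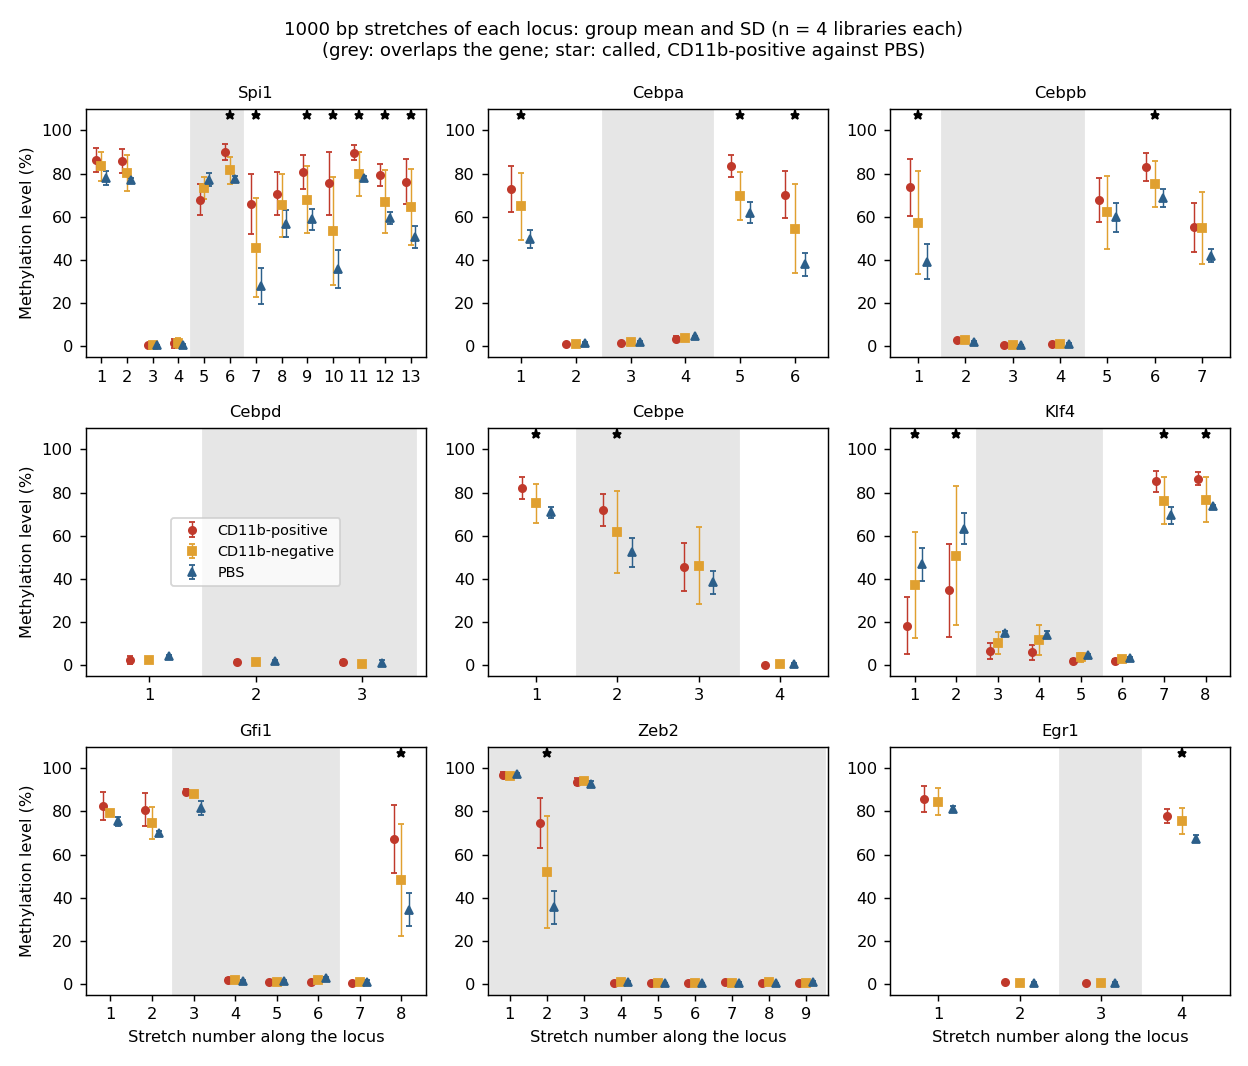
Methylation (percent, group mean with SD, n = 4) of every numbered stretch at each of the 9 loci, in order of coordinate, for CD11b-positive, CD11b-negative and PBS libraries. Grey marks stretches that overlap the gene and stars those called between CD11b-positive and PBS libraries. Low stretches at and near the genes differ little, and most stars stand at intermediate levels in the flanks.

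Cebpa, the C/EBP factor required to form granulocyte and monocyte progenitors (chromosome 7, 35119293 to 35121928, 170 CpGs), had no called locus difference. Locus methylation was 9.36% to 10.8% in CD11b-positive, 9.06% to 10% in CD11b-negative and 8.67% to 9.32% in PBS libraries, with a difference from PBS of 1.17 points (adjusted p = 0.00877). The sign depended on the region: with the gene body alone the difference was -1.95 points (adjusted p = 0.0056). The stretch at the start averaged 1.37 ± 0.396% in CD11b-positive and 2.06 ± 0.335% in PBS libraries (SD, n = 4 each). Within that stretch, 2 single CpGs, at positions 35119963 and 35119972, were called lower, by -27.6 to -25.7 points from PBS. These CpGs were picked out after their values were seen. The called stretches were all in flanks and all higher. Stretch 6, 17073 bp downstream, averaged 70.2 ± 10.8% in CD11b-positive and 38 ± 5.3% in PBS libraries, a difference of 32.2 points (adjusted p = 0.00323). Stretch 1, 6293 bp upstream, had methylation of 78.9%, 84.7%, 62.8% and 64.7% in the CD11b-positive libraries, 64.4%, 86.8%, 52.5% and 55.7% in the CD11b-negative libraries, and 45.1%, 53.6%, 47.6% and 53.1% in the PBS libraries. The CD11b-positive libraries all lay above the PBS libraries there, by 22.9 points on average (adjusted p = 0.00785), and stretch 5 rose by 21.6 points.

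Cebpb, a C/EBP factor of macrophages and of stress granulopoiesis (chromosome 2, 167688915 to 167690432, 224 CpGs), was unmethylated across its body. Its 3 stretches in the gene did not exceed 3.64% in any library. The stretch at the start averaged 2.89 ± 0.404% in CD11b-positive and 1.84 ± 0.369% in PBS libraries (SD, n = 4 each), a difference of 1.04 points (adjusted p = 0.00498), which is under the size threshold. Stretch 1, 11915 bp upstream (chr2:167676001-167677000, 7 CpGs, at least 1549 calls), had 72.1%, 92.7%, 63.3% and 66.6% in the CD11b-positive libraries, 51.6%, 92.2%, 41.0% and 44.1% in the CD11b-negative libraries, and 28.9%, 49.3%, 40% and 38.8% in the PBS libraries. The CD11b-positive and PBS libraries did not overlap, and the difference was 34.4 points (adjusted p = 0.0043). Downstream, stretch 6 rose by 14.2 points (adjusted p = 0.0136). Over the whole locus the difference was 2.91 points (adjusted p = 0.00886), which was not called.

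Cebpd, an early-response C/EBP factor (chromosome 16, 15887286 to 15889545, 75 CpGs), had no called stretch. None of its 3 stretches exceeded 4.78% in any library. The lowest p was at stretch 1, just outside the gene, with 2.22 ± 1.79% in CD11b-positive and 4.11 ± 0.513% in PBS libraries (SD, n = 4 each, adjusted p = 0.118 in the model over all stretches). The locus difference was -0.0151 points (adjusted p = 0.995).

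Cebpe, the C/EBP factor of late granulocyte maturation (chromosome 14, 54710363 to 54712174, 39 CpGs), was the most methylated of the 9 loci, and none of its CpGs lay in dense sequence. Methylation was 68.4%, 76.3%, 63.9% and 62.9% in the CD11b-positive libraries, 59.4%, 79.5%, 55.2% and 52.7% in the CD11b-negative libraries, and 51.4%, 60%, 56.2% and 54.0% in the PBS libraries. All CD11b-positive libraries lay above all PBS libraries, and CD11b-negative library 2 was the highest of the 12. The difference from PBS was 12.5 points (adjusted p = 0.00738), 11.2 points without the libraries numbered 2, and 0.583 points, not called, with the Y-chromosome share as a term. Stretch 2, in the gene, averaged 72.0 ± 7.43% in CD11b-positive and 52.3 ± 6.72% in PBS libraries (SD, n = 4 each), and rose by 19.7 points (adjusted p = 0.00599). Stretch 1, 11363 bp outside the gene, rose by 11.1 points, and by 9.80 points, under the size threshold, without the libraries numbered 2.

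Klf4, which promotes monocyte differentiation downstream of PU.1 (chromosome 4, 55527137 to 55532475, 148 CpGs), was the 1 locus of the 9 that fell. Methylation was 13.3%, 5.04%, 13.8% and 15.2% in the CD11b-positive libraries, 16.7%, 5.65%, 20.7% and 20.6% in the CD11b-negative libraries, and 21.7%, 17.8%, 21.4% and 19.3% in the PBS libraries. All CD11b-positive libraries lay below all PBS libraries, and both libraries numbered 2 of the treated mice were far below the rest. The difference from PBS was -8.23 points (adjusted p = 0.0109) and -6.73 points without the libraries numbered 2. With the Y-chromosome share as a term the sign turned, to 1.22 points at the locus, 1.43 at stretch 1 and 5.52 at stretch 2, none of them called. Of all loci in the series, 5.12% were called lower.

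The Klf4 loss lay in the gene and in a dense region downstream of it. At stretch 1, 12137 bp downstream (chr4:55514001-55515000, 15 CpGs, at least 949 calls), methylation was 16.3%, 0.994%, 25.2% and 30.8% in the CD11b-positive libraries, 44.9%, 0.527%, 52.6% and 50% in the CD11b-negative libraries, and 53.6%, 36.4%, 51.1% and 45.5% in the PBS libraries. The CD11b-positive libraries all lay below the PBS libraries, and in the CD11b-negative group only library 2 did. The difference was -28.3 points (adjusted p = 0.00766) and -26.0 points without the libraries numbered 2. The adjoining stretch 2 (9 CpGs, at least 293 calls) had 42.9%, 2.15%, 46.1% and 47.3% in the CD11b-positive libraries, 59.8%, 3.07%, 72.2% and 67.7% in the CD11b-negative libraries, and 69.8%, 57.5%, 69.2% and 56.5% in the PBS libraries. Here too the CD11b-positive and PBS libraries did not overlap. The difference was -28.7 points (adjusted p = 0.0278), -19.8 points without the libraries numbered 2 and -17.8 points without CD11b-positive library 2 alone. Both stretches are CpG-dense, and dense stretches of intermediate level fell across the series. Of all dense stretches between 20% and 80% in PBS libraries, 63.5% were called lower and 9.56% higher. The median difference was -22.9 points over the dense stretches at PBS levels of 45% to 50%, where Klf4 stretch 1 lies, and -30.6 points at 60% to 65%, where stretch 2 lies. The call of stretch 2 was lost without PBS library 1 (adjusted p = 0.0639) or PBS library 3 (adjusted p = 0.0612) and with edgeR (adjusted p = 0.0871).

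Inside Klf4, stretch 3 averaged 6.63 ± 3.62% in CD11b-positive, 10.3 ± 4.94% in CD11b-negative and 14.8 ± 0.788% in PBS libraries (SD, n = 4 each), a difference of -8.16 points from PBS (adjusted p = 0.00617) that is under the size threshold. The stretch at the start had a difference of -2.59 points (adjusted p = 0.00154). Single CpGs were called lower at 16 positions in the gene, by -25.9 to -10.1 points, and at 11 downstream, by -40.3 to -24.6 points. Upstream the direction was the opposite: stretch 7, 13526 bp before the gene, averaged 85.1 ± 4.68% in CD11b-positive and 69.4 ± 3.99% in PBS libraries (SD, n = 4 each) and rose by 15.7 points (adjusted p = 0.0105). Stretch 8 rose by 12.8 points. Both upstream stretches lie in CpG-sparse DNA within Gm12506.

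Gfi1 (chromosome 5, 107716655 to 107725805, 140 CpGs) had locus methylation of 20.1% to 21.8% in CD11b-positive, 19% to 21.3% in CD11b-negative and 18.4% to 19.2% in PBS libraries. The CD11b-positive libraries all lay above the PBS libraries, by 2.03 points (adjusted p = 0.00311), under the size threshold. Its 1 called stretch, stretch 8, lies 10196 bp upstream (3 CpGs, at least 299 calls). Methylation there was 59.4%, 90.7%, 60.3% and 58.0% in the CD11b-positive libraries, 39.7%, 86.6%, 35.3% and 30.8% in the CD11b-negative libraries, and 29.7%, 45.5%, 28.5% and 34.3% in the PBS libraries. The CD11b-positive and PBS libraries did not overlap, and the difference was 32.6 points (adjusted p = 0.0064). The 2 stretches that hold Gfi1 starts were lower in CD11b-positive libraries at levels of at most 3.21% in every library, with differences of -0.723 points (adjusted p = 0.00634) and -1.55 points (adjusted p = 0.00229). Stretch 3, in the gene, averaged 89.2 ± 1.3% in CD11b-positive, 88.0 ± 0.965% in CD11b-negative and 81.5 ± 3.23% in PBS libraries (SD, n = 4 each).

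Zeb2 (chromosome 2, 44983512 to 45117442, 99 CpGs) had measured stretches only within its long gene. Near its starts 6 stretches did not exceed 2.09% in any library. Stretch 1 averaged 97.1 ± 1.23% in CD11b-positive and 97.3 ± 0.384% in PBS libraries, and stretch 3 averaged 93.8 ± 1.62% in CD11b-positive and 92.7 ± 1.25% in PBS libraries (SD, n = 4 each). Between these extremes, stretch 2 (chr2:45066001-45067000, 3 CpGs, at least 1309 calls) had 74.2%, 91.2%, 67.5% and 65.3% in the CD11b-positive libraries, 44.2%, 90.6%, 38.9% and 34.7% in the CD11b-negative libraries, and 27.3%, 45.5%, 35.2% and 34.1% in the PBS libraries. The CD11b-positive libraries lay well above the PBS libraries, and 3 of the 4 CD11b-negative libraries lay within the PBS range. The difference was 39.1 points (adjusted p = 0.00207). The locus difference was 2.42 points (adjusted p = 0.00223), under the size threshold.

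**Figure D4:**
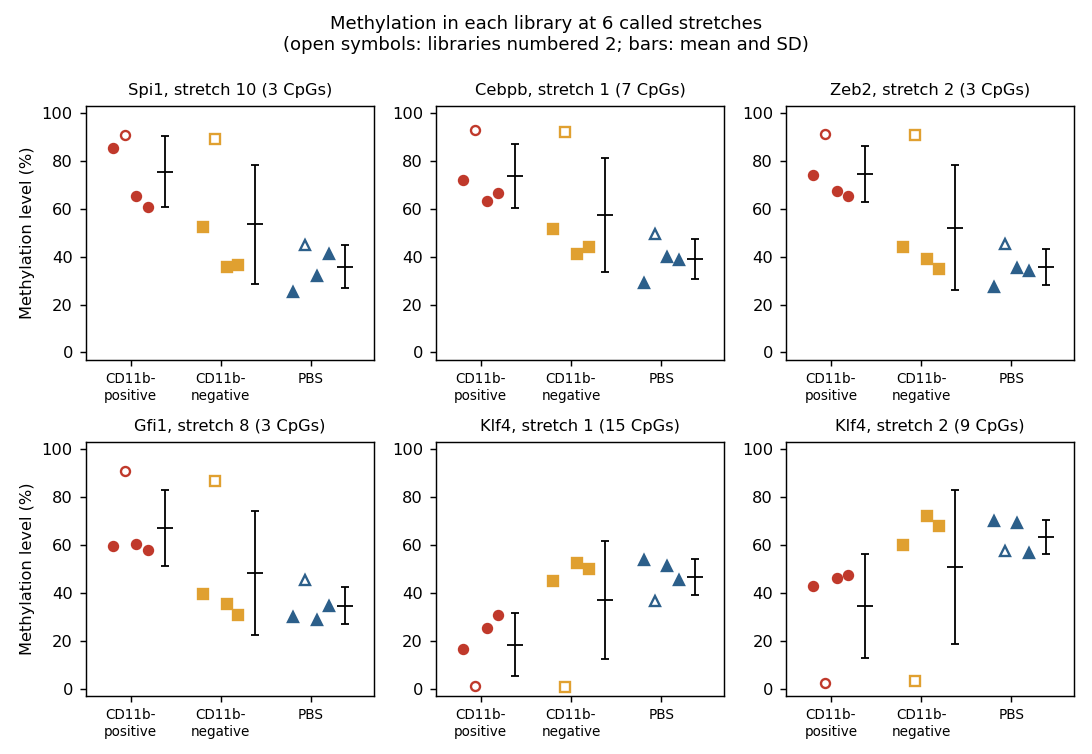
Methylation (percent) per library at 6 stretches near Spi1, Cebpb, Zeb2, Gfi1 and Klf4, for CD11b-positive, CD11b-negative and PBS libraries from left to right. The library numbered 2 of each treated group is the highest of its group at the 4 stretches that rose and the lowest at both Klf4 stretches.

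Egr1, an immediate-early factor that favours the macrophage fate (chromosome 18, 34861207 to 34864956, 44 CpGs), showed a small difference. Locus methylation was 26.7% to 30.9% in CD11b-positive, 27.3% to 31.5% in CD11b-negative and 26.6% to 26.8% in PBS libraries, with a difference between CD11b-positive and PBS of 2.29 points (adjusted p = 0.0562). Its stretch in the gene averaged 0.635 ± 0.186% in CD11b-positive and 0.558 ± 0.241% in PBS libraries (SD, n = 4 each). The 1 called stretch, stretch 4, lies 13045 bp above the gene and had as few as 54 calls in a library. It averaged 77.9 ± 3.09% in CD11b-positive and 67.4 ± 1.71% in PBS libraries (SD, n = 4 each), rose by 10.5 points (adjusted p = 0.0172), and was under the size threshold without the libraries numbered 2, at 9.54 points.

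At single CpGs, 112 of 1064 were called between CD11b-positive and PBS libraries, 78 higher and 34 lower, which is 10.5% beside 16.7% of all CpGs (13.3% higher and 3.48% lower). In a single fit of all 12 libraries 49 were called, 36 higher and 13 lower, beside 7.31% of all CpGs. Of the 34 lower CpGs, 27 lie at the Klf4 locus. Of the 78 higher ones, 26 lie at the Spi1 locus, 14 at Cebpb and 12 at Cebpa.

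Between CD11b-negative and PBS libraries, 0 of the 62 stretches, 0 of the 9 loci and 0 of the 1064 CpGs were called, and 0% of all features of each kind. At an unadjusted p under 0.05 the logistic model passed 3 stretches, beside 9.92% of all, 0 loci, beside 4.78%, and 39 CpGs, beside 5.07%, and edgeR called 0 stretches and 0 loci. The median difference was 0.764 points over the 62 stretches and 2.53 over all. The groups did not overlap at 5 of the 62 stretches, beside 10.6% of all, and at 1 of the 9 loci, Egr1, beside 12.7%. At Spi1 stretch 10 the group means differed by 17.7 points and at Zeb2 stretch 2 by 16.6 points, with CD11b-negative SDs of 25 and 26 points (n = 4), since library 2 of that group lay far above the 3 others. For each gene the stretch with the lowest p had an adjusted p of 0.488 or more. Among these was Klf4 stretch 3, with 10.3 ± 4.94% in CD11b-negative and 14.8 ± 0.788% in PBS libraries, where the groups did not overlap (SD, n = 4 each). Another was Gfi1 stretch 3, with the means given above and a difference of 6.58 points.

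Between CD11b-positive and CD11b-negative libraries of treated mice, 0 of the 62 stretches, 0 of the 9 loci and 0 of the 1064 CpGs were called with all 8 libraries, and 0% of all features of each kind. At an unadjusted p under 0.05 the logistic model passed 7 stretches, beside 10.9% of all, 0 loci, beside 6.45%, and 67 CpGs, beside 6.87%, and edgeR called 0 stretches and 0 loci. The groups did not overlap at 1 of the 62 stretches, beside 2.57% of all. This result rested on CD11b-negative library 2. Without it, 18 of 62 stretches were called, beside 20.4% of all, with 16 higher and 2 lower, and 3 of 9 loci, beside 30.8% of all. Those loci were Spi1 at 7.74 points (adjusted p = 0.0158), Cebpe at 12.1 points (adjusted p = 0.0211) and Klf4 at -7.50 points (adjusted p = 0.0338). These values keep CD11b-positive library 2, the library closest to the one left out. Without both libraries numbered 2, 15 stretches were called, beside 20.3% of all, and the same 3 loci, beside 25.2%.

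The replicate numbers paired the libraries of these groups by a rule on correlated deviations in these same data. The correlations were 0.159, 0.926, 0.654 and 0.682 for numbers 1 to 4, and only number 2 correlated best with its own number. The blocked p-values therefore rest on a pairing that the labels do not give. With the number as a block in the model, 11 of 62 stretches were called, 9 higher and 2 lower, beside 13.4% of all. With that block 0 of 9 loci were called, beside 16.2% of all, and 53 CpGs, beside 6.70% of all. At Zeb2 stretch 2 the mean was 74.6 ± 11.7% in CD11b-positive and 52.1 ± 26% in CD11b-negative libraries (SD, n = 4 each). The difference of 22.5 points had an adjusted p of 0.386 without the block and 0.000924 with it. At Klf4 stretch 1 the difference was -18.7 points, with an adjusted p of 0.386 without the block and 0.000994 with it. Spi1 stretch 10 differed by 22 points and Cebpb stretch 1 by 16.4 points, both called with the block and not without it.

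**Figure D5:**
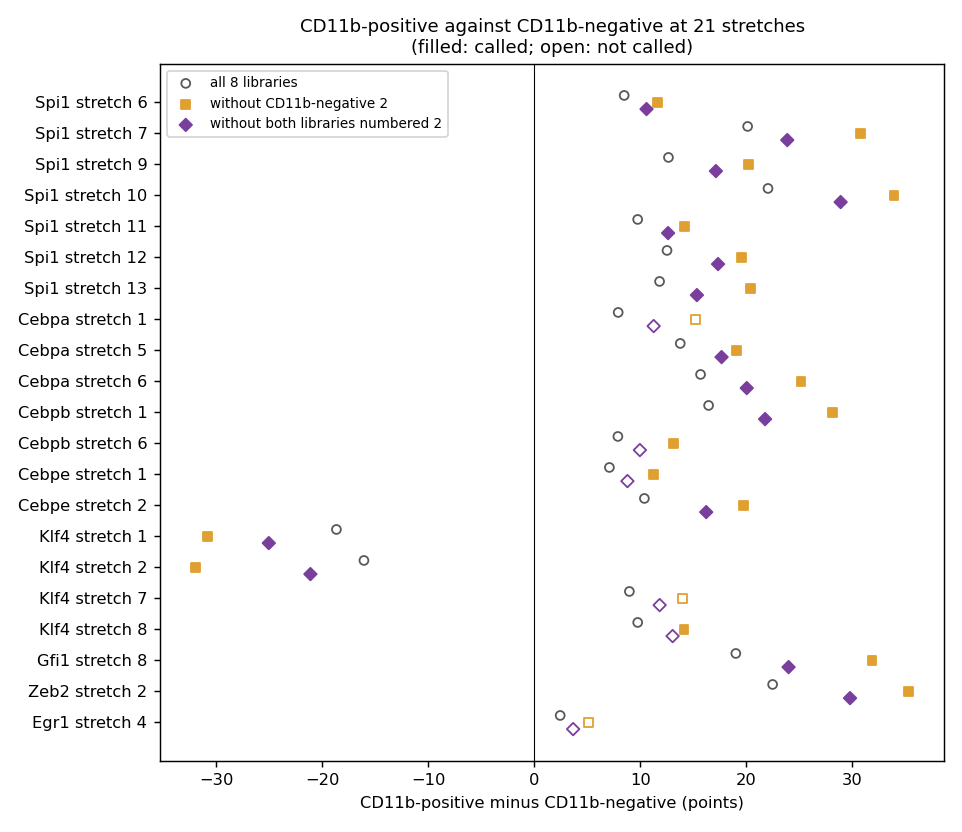
Difference in methylation, CD11b-positive minus CD11b-negative (percentage points), at the 21 stretches called between CD11b-positive and PBS libraries, with all 8 libraries, without CD11b-negative library 2, and without both libraries numbered 2. The differences are larger without CD11b-negative library 2, at 35.3 points for Zeb2 stretch 2 and -30.8 points for Klf4 stretch 1, against 22.5 and -18.7 points with all 8 libraries. That setting keeps CD11b-positive library 2, the library closest to the one left out.

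The comparisons share libraries, and the values of the called loci are given side by side for that reason. Relative to PBS, Spi1 differed by 8.47 points in CD11b-positive libraries, while in the CD11b-negative group library 2 was at 54.7% and the 3 others at 40.9% to 43.3%, beside 39.2% to 43.0% in PBS libraries. Klf4 differed from PBS by -8.23 points in CD11b-positive libraries, and in the CD11b-negative group it was at 5.65% in library 2 and at 16.7% to 20.7% in the 3 others, beside 17.8% to 21.7% in PBS libraries. Cebpe differed from PBS by 12.5 points in CD11b-positive libraries, and in the CD11b-negative group it was at 79.5% in library 2 and at 52.7% to 59.4% in the 3 others, beside 51.4% to 60% in PBS libraries.

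Other genes of the same pathway were described through 2 lists. Of 40 other myeloid transcription factors and partners of PU.1 or C/EBP, all measured, 7 loci were called between CD11b-positive and PBS libraries, 6 of them higher, which is 17.5% beside 39.8% of all loci, with a median difference of 1.87 points. Among those that rose were Vdr, the vitamin D receptor, by 14.6 points (adjusted p = 0.00225), Runx1, the partner of the protein altered by inv(16), by 9.19 points (adjusted p = 0.00421), and Irf8, an interferon-family partner of PU.1, by 6.01 points (adjusted p = 0.00224).

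Of 30 myeloid genes that PU.1 or C/EBP factors are known to drive, 28 were measured, and 19 were called higher and 1 lower. That is 71.4% beside 39.8% of all loci, with a median difference of 8.2 points beside 3.02. The mean locus level of this list was 35.6% to 39.1% in PBS libraries, beside 16.5% to 16.8% for the list of 40 factors and partners. Loci were not matched for that level, and whether the share is particular to such genes was not tested. Itgax, the integrin CD11c, averaged 82.2 ± 7.57% in CD11b-positive and 58.6 ± 3.79% in PBS libraries, and Itgam, the gene of CD11b itself, averaged 57.3 ± 7.13% in CD11b-positive and 37.8 ± 3.1% in PBS libraries (SD, n = 4 each). Csf1r, the receptor that macrophages need, rose by 19.5 points (adjusted p = 0.00343). The loci of marker lists for other cells of the spleen were called between the same groups at 8 of 10 T cell, 3 of 10 B cell, 5 of 9 erythroid, 6 of 8 neutrophil, 5 of 10 monocyte or macrophage, 3 of 9 dendritic and 6 of 10 endothelial or stromal genes. The mean locus level over each list was 40.7% to 45.2% in CD11b-positive and 33.3% to 36.4% in PBS libraries for T cell genes, and 33.4% to 38.7% in CD11b-positive and 26.7% to 29.0% in PBS libraries for B cell genes. It was 36.9% to 40.6% in CD11b-positive and 32.9% to 34.8% in PBS libraries for erythroid genes, and 47.0% to 54.4% in CD11b-positive and 38.6% to 42.0% in PBS libraries for neutrophil genes. For monocyte or macrophage genes it was 52.6% to 58.6% in CD11b-positive and 48.5% to 50.2% in PBS libraries, and for dendritic cell genes 28.6% to 32.3% in CD11b-positive and 22.8% to 24.5% in PBS libraries. For endothelial or stromal genes it was 47.0% to 51.1% in CD11b-positive and 42.3% to 44.3% in PBS libraries. These lists measure methylation, not the number of such cells, and their part in the differences at the 9 loci was not tested. In the comparisons of CD11b-negative with PBS libraries and of CD11b-positive with CD11b-negative libraries, 0 loci of any of these lists were called.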

How the data were processed

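The deposited files gave, for each of 12 libraries, methylated and unmethylated counts per cytosine, made by the authors with Trim Galore 0.6.4, cutadapt 2.7 and Bismark on build mm10, with methylKit 1.20.0 also listed, per the submitters' processing notes. The version of Bismark is not given in the sources used here. Bisulfite calls have no molecular identifiers, so counting errors are lower limits.

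Here both strands of a CpG were summed, and CpGs with at least 10 calls in all 12 libraries were kept. The level of a stretch of 1000 bp is methylated over all calls, and that of a locus is the mean over its CpGs with equal weight. Each comparison of 4 with 4 libraries used a quasi-binomial logistic model with an F test. Its dispersion was moderated as in limma 3.58.1 in classes of average level with limits at 5%, 20%, 80% and 95%, and kept at 1 or more. P-values were adjusted over all stretches, loci, start windows or CpGs. The model was tested on simulated counts, and edgeR 4.0.16 was run as another method. Python 3.11.15 with numpy 2.4.6 and scipy 1.17.1 was used.

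Stretches are numbered along each locus. Named were, for each comparison, up to 3 called stretches per gene by size, otherwise the stretch with the lowest p, and the stretches with a gene start. Others named, including the Spi1 gene body and its CpG, were chosen after their values were seen. Groups come from the labels, and the members and lists were chosen with earlier results of these data known. Same-numbered CD11b-positive and CD11b-negative libraries deviated together over stretches, with correlations of 0.159, 0.926, 0.654 and 0.682 for numbers 1 to 4, all above 0.1, and were treated as paired in the blocked model, although the labels do not say what the numbers mark. Gene ends and starts came from RefSeq on GRCm38.p6, which has the coordinates of mm10. Exons, introns, UTRs and the sequence between genes were not used here. The values of 1 gene of the partner list are not reported here.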

Additional observations from a re-analysis of the deposited data

Results flagged for a closer look

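In groups of 4 libraries, a library was singled out when its gap to the nearest other exceeded Dixon's 95% critical share of the range of its group. Chance singles out about 1 in 20 groups, and 14 values were singled out among 96 groups. The 96 groups read the same 12 libraries over loci, called stretches within them and start windows. They are not independent, so the count cannot be tested against that rate. CD11b-negative library 2 gave 7 of them, CD11b-positive library 2 gave 5, and PBS libraries 1 and 2 gave 1 each.

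CD11b-negative library 2 was above the rest of its group at the Cebpb locus, at 14.6% against 9.0% to 9.42%, at the Zeb2 locus, at 15.3% against 11.8% to 12.4%, and at the Egr1 locus, at 31.5% against 27.3% to 27.8%. It was also above its group at Cebpb stretch 6, at 90.8% against 67.9% to 71.3%, at Gfi1 stretch 8, at 86.6% against 30.8% to 39.7%, and at Zeb2 stretch 2, at 90.6% against 34.7% to 44.2%. At Klf4 stretch 1 it was below its group, at 0.527% against 44.9% to 52.6%.

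CD11b-positive library 2 was above the rest of its group at Spi1 stretch 7, at 86.4% against 55.8% to 61.0%, at Cebpe stretch 1, at 89.5% against 78.8% to 80.6%, and at Gfi1 stretch 8, at 90.7% against 58.0% to 60.3%. It was below its group at Klf4 stretch 2, at 2.15% against 42.9% to 47.3%, and in the window around the Klf4 start, at 0.773% against 3.72% to 4.08%. In the PBS group, library 1 was low at Cebpb stretch 6, at 62.7% against 70.3% to 71.6%, and library 2 was low around the Klf4 start, at 5.08% against 7.04% to 7.38%.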

How the results depend on the processing

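Between CD11b-positive and PBS libraries, leaving out 1 library gave 19 to 23 called stretches, 3 to 3 loci and 79 to 116 CpGs. Shares of all features are not given here for these ranges. The Y-chromosome share as a term gave 0, 0 and 0, beside 0.131%, 1.81% and 0.104% of all. One fit of all 12 libraries gave 49 CpGs, and a threshold of 2 points gave 6 loci, with no share of all loci given here. The methods edgeR and summed calls gave 5 loci each, beside 46.1% and 45.3% of all loci. By edgeR 20 stretches were called, beside 35.4% of all. The replicate number as a block gave 22 stretches, 3 loci and 123 CpGs, beside 35.3%, 39.9% and 18.4% of all. The CD11b-positive and PBS libraries correlated at 0.175, 0.730, 0.232 and -0.099 for numbers 1 to 4. Numbers 1 and 2 correlated best with their own number. Number 4 was not above 0.1, so these groups were not taken as paired. Between CD11b-negative and PBS libraries 0 to 0 were called with 1 library left out. Between CD11b-positive and CD11b-negative libraries the ranges were 0 to 18 stretches, 0 to 3 loci and 0 to 61 CpGs. The highest counts came without CD11b-negative library 2, beside 20.4%, 30.8% and 7.32% of all. The replicate block gave 11 stretches and 53 CpGs, beside 13.4% and 6.70% of all. In the pairing behind that block, only number 2 correlated best with its own number. Leaving out both libraries numbered 2 gave 15 stretches, 3 loci and 68 CpGs, beside 20.3%, 25.2% and 8.36% of all. The choice to leave them out was made after seeing the data.

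Several locus differences changed sign, in points. Relative to PBS, Cebpa was -0.609 (CD11b-negative) and -1.39 (CD11b-positive) with 5 kb flanks, and -0.847 and -1.95 with the gene body alone, and between the treated groups -0.777 and -1.10 with these regions. Cebpa in CD11b-negative libraries was -0.243 with edgeR and with summed calls. With the gene body alone, Cebpb was -0.107 (CD11b-negative) and -0.0438 (CD11b-positive) relative to PBS, and Spi1 was -1.73 (CD11b-negative), -7.49 (CD11b-positive) and -5.75 between the treated groups. Gfi1 between the treated groups was -0.0679 with 5 kb flanks and -0.0374 with the gene body alone. Egr1 relative to PBS was -6.98 (CD11b-negative) and -0.326 (CD11b-positive) with edgeR and with summed calls, and between the treated groups -0.253 to 1.36 with 1 library left out. Cebpd in CD11b-positive libraries relative to PBS was 0.163 at 20 or 30 calls, 0.0868 without both libraries numbered 2, and -0.26 to 0.247 with 1 library left out. With the Y-chromosome share as a term, differences from PBS were 1.05 at Cebpd, 1.22 at Klf4, 1.43 at Klf4 stretch 1, 5.52 at Klf4 stretch 2 and -0.606 at Gfi1 stretch 8. Between the treated groups they were -0.273 at Cebpb, -2.86 at Cebpe, -0.873 at Egr1 and 3.09 at Klf4.

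Calls for single stretches were lost at Klf4 stretch 2 with all 12 libraries (adjusted p = 0.0977 in the logistic model), at Cebpe stretch 2 in that fit (adjusted p = 0.0522), and at Egr1 stretch 4 without PBS library 4, at 9.74 points. The causes of these changes were not tested. Depth limits Klf4 stretch 7, Klf4 stretch 8 and Egr1 stretch 4 most among the called stretches, with as few as 51, 67 and 54 calls in a library.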
